A study of Mus musculus with 6 samples.

Results

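Genes of the mitochondrial respiratory chain and ATP synthase were described in whole mouse kidneys of E13.5 embryos. The members were the genes named Ndufa, Ndufb, Ndufc, Ndufs, Ndufv, Uqcr, Cox4 to Cox8 or Atp5, with Sdha, Sdhb, Sdhc and Sdhd. They were taken from probe sets annotated to a single gene, and each gene was represented by its probe set of highest mean. This gave 90 members of 18193 genes: 42 of complex I, 4 of complex II, 8 of complex III, 19 of complex IV and 17 of complex V. RNA from dissected kidney rudiments was hybridized to Affymetrix MOE430.2 arrays, 3 for embryos of genotype Fz4+/+Fz8-/- (Fz8-null, arrays C1, C2 and C3) and 3 for Fz4-/-Fz8-/- embryos (double-null, arrays M1, M2 and M3). Both groups therefore lacked the Wnt receptor Fz8 and differed in Fz4. All were hybrids of C57BL/6, 129X1/SvJ and 129S1/Sv, and the labels do not say whether an array holds kidneys of a single embryo or of several. The arrays compare what loss of Fz4 changes where Fz8 is already missing.

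The respiratory chain passes electrons from NADH (complex I) or succinate (complex II) through ubiquinone to complex III, then by cytochrome c to complex IV, which reduces oxygen. Complexes I, III and IV pump protons across the inner mitochondrial membrane, and complex V, the ATP synthase, lets them flow back to make ATP. Complexes I, III, IV and V each have a catalytic core and smaller accessory subunits encoded in the nucleus. They also hold subunits encoded in mitochondrial DNA. Whole kidneys were profiled, so fewer cells of a type and less RNA per cell cannot be told apart.

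No member passed limma's test over all genes at an adjusted p of 0.05, that is 0 of 90, where 5 of 18193 genes or 0.0275% passed; the smallest adjusted p of a member was 0.314. At an unadjusted limma p under 0.05, 9 members were higher and 0 lower in double-null kidneys, where 6.05% of all genes were higher and 9.23% lower. By direction alone 57 of the 90 members lay higher (63.3%), against 41.9% of all genes. All 3 double-null arrays lay above every Fz8-null array for 13 members (14.4%), where 6.68% of all genes did so. They lay below every Fz8-null array for 0 members, where 12.2% of all genes did. Among the 3098 genes with a mean log2 value of at least 10, where all 13 members lie, the shares were 3.39% higher and 16.2% lower. The median log2 difference, double-null minus Fz8-null, was 0.064 over the members and -0.061 over all genes. The differences were small: apart from Cox7b2 at 1.60, whose probe set was dim, they ran from -0.75 to 0.68.

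**Figure D1:**
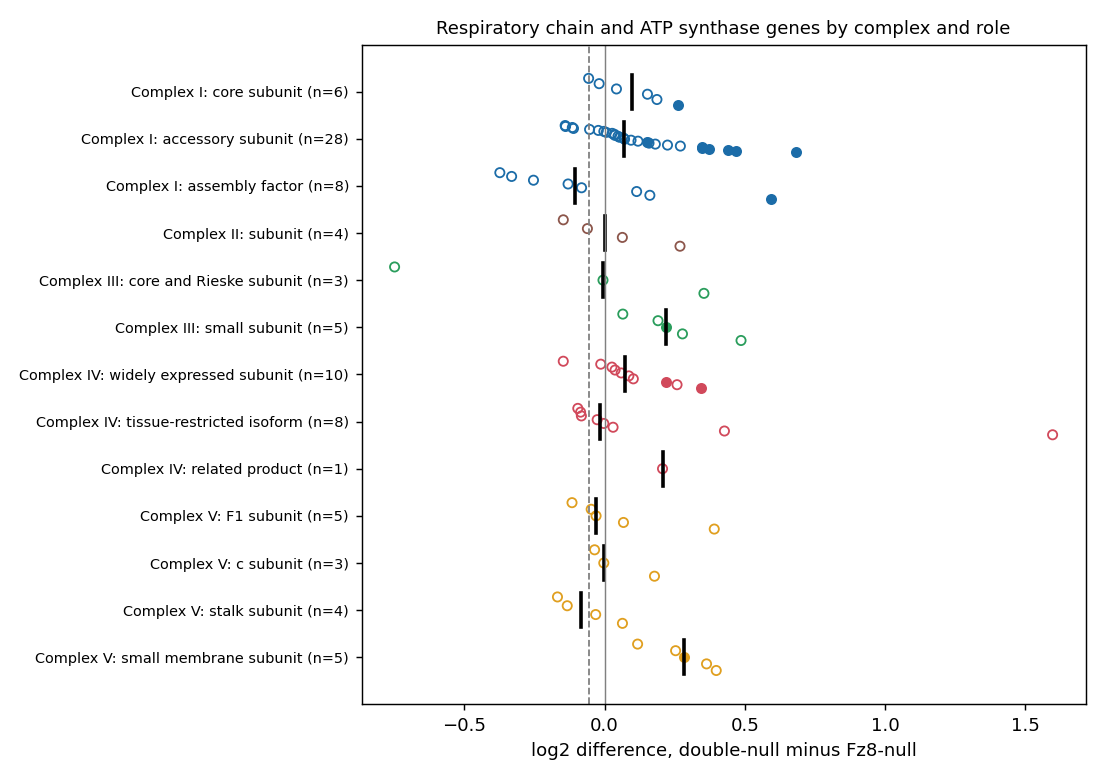
Log2 difference (double-null minus Fz8-null) of each of the 90 members, by complex and role. Filled points mark the 13 members whose 3 double-null arrays all lay above every Fz8-null array, short bars mark the median of a class, and the dashed line marks the median of all genes with a mean log2 value of at least 10 (-0.054). Small subunits of complexes III and V lie to the right.

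Most members gave bright probe sets, 71 of the 90 with a mean log2 value of at least 10, and the median difference of all genes varied with level, so members were set beside genes of like level. Between 10 and 11 the median difference was 0.10 over 16 members and -0.076 over 1811 genes. Between 11 and 12 it was 0.095 over 27 members and -0.036 over 916 genes. Between 12 and 14 it was 0.066 over 28 members and -0.016 over 370 genes. Groups did not overlap, on the higher side, for 3, 4 and 6 members in these ranges, where 3.26%, 3.06% and 4.86% of the genes did so. On the lower side the count was 0 members in each range, where 17.3%, 16.4% and 10.5% of genes lay lower without overlap. No test was made of these shares.

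These counts depended on single arrays. Without C1, 33 members lay higher without overlap and 8 lower, where 16.2% and 23.2% of all genes did so; with fewer arrays, groups separate more often by construction. Without M1 the counts were 31 and 1, where 10.3% and 15.6% of genes did so, and without M3 they were 22 and 12, where 19.2% and 34.1% did. The median difference of the members stayed above 0 in each of these 6 fits, from 0.037 to 0.12. With arrays weighted by how well they fitted, 26 members passed limma, 17 of them higher, in a fit where 41.6% of all genes passed. Without M3, 2 members passed (Cox7b2 and Cox4i2), where 18.1% of all genes did.

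**Figure D2:**
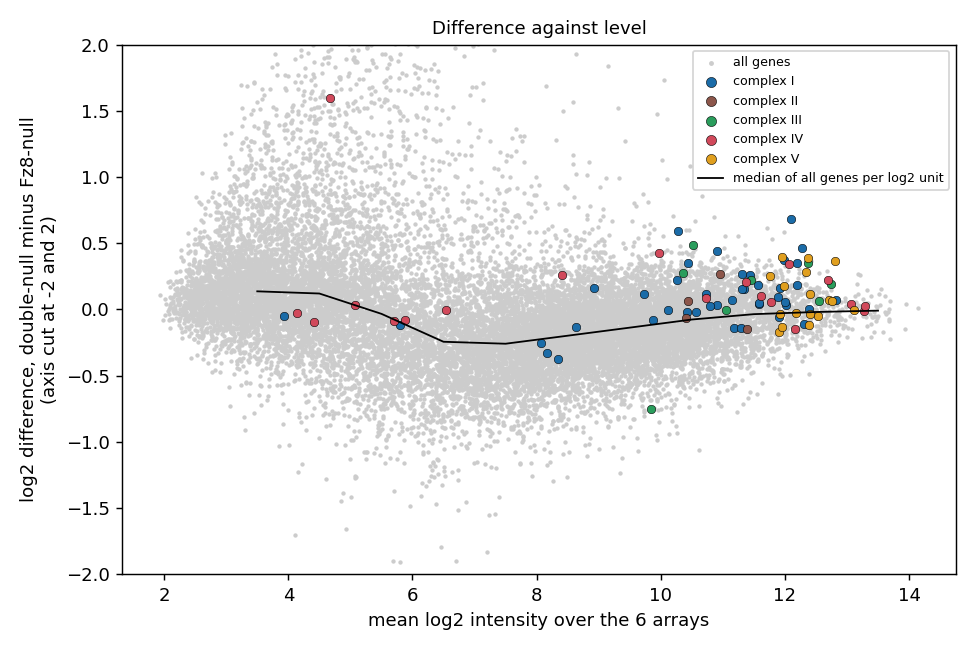
Log2 difference (double-null minus Fz8-null) against the mean log2 intensity over the 6 arrays, for all 18193 genes (grey) and the members (coloured by complex), with the median of all genes in each log2 unit as a line. Most members sit at the bright end, where 51 of the 71 with a mean of at least 10 lie above 0. Of all 3098 genes at that level, 38.7% do.

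From array to array the shift was uneven. Relative to the Fz8-null mean of each gene, the median over the 90 members was 0.032 in C1, 0.013 in C2 and -0.054 in C3, and 0.0072 in M1, 0.083 in M2 and 0.13 in M3. In M1 47 of 90 members lay above the Fz8-null mean, in M2 56 and in M3 70. C1 was the highest Fz8-null array for 46 of the 90 members and the lowest for 33, where it was highest for 7728 and lowest for 6838 of 18193 genes. Of the 13 members with no overlap, which were picked on these values, 12 had C1 as the highest. The gap between 3' and 5' control probe sets, which is used to judge how intact the copied RNA was, was 1.00 for Actb in C1, 0.74 in C2, 0.75 in C3, 1.30 in M1, 1.08 in M2 and 0.57 in M3 on the log2 scale. For Gapdh it was 1.01, 0.80, 0.79, 1.15, 1.04 and 0.88 in the same order. C1, M1 and M2 thus had the wider gaps for both controls, and the part of this in the members' values was not tested.

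**Figure D3:**
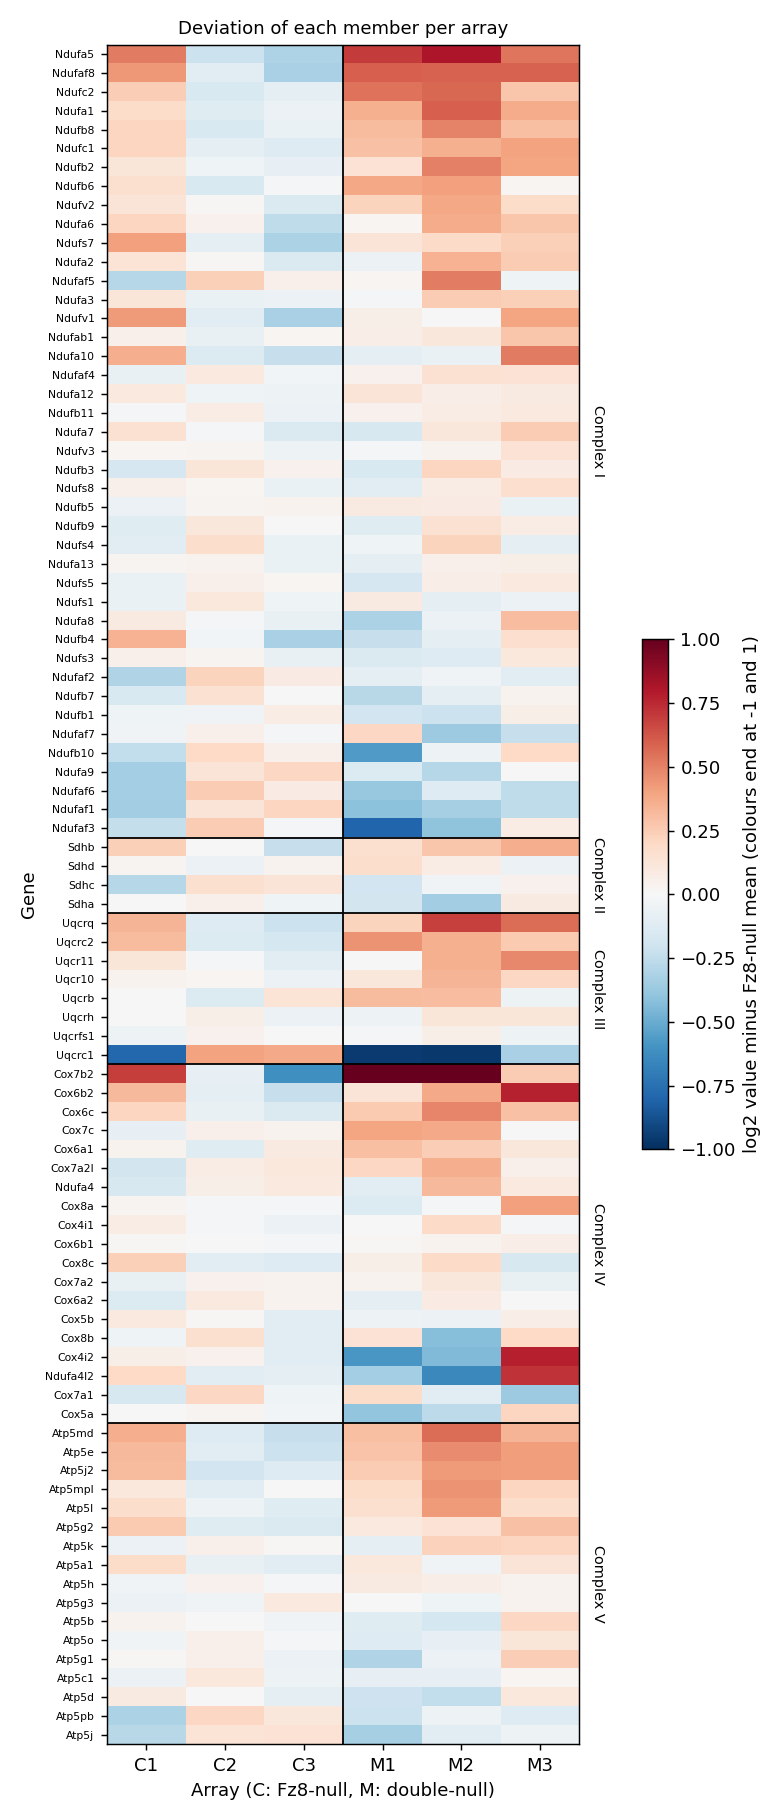
Log2 value of each of the 90 members on each array minus that gene's Fz8-null mean, grouped by complex and ordered within it by the difference between genotypes. Red is higher and blue lower; in the upper rows of complexes I and V the first Fz8-null array, C1, shares the colour of the double-null arrays.

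Nuclear genes of the chain are known to be driven in common by the factors NRF-1, GABP and YY1, so promoters are shown for members that lay furthest apart. RefSeq promoter windows (GRCm38.p6, 250 bases before to 50 after the start) were matched for 74 of the 90 members, with 79 windows. Among members with a single window that holds a match, the lowest difference (Uqcrc1) and the 3 highest (Ndufaf8, Ndufa1 and Atp5md) are printed 5′ to 3′ on the gene's strand. Capitals mark matches, on either strand, to GCATGCG (NRF-1), CCGGAAG (GABP) or ATGGCGG (YY1). Uqcrc1 is at chr9:108936398-108936697 (+), Ndufaf8 at chr11:120098684-120098983 (+), Ndufa1 at chrX:37191189-37191488 (-) and Atp5md at chr19:47090598-47090897 (-).
Uqcrc1: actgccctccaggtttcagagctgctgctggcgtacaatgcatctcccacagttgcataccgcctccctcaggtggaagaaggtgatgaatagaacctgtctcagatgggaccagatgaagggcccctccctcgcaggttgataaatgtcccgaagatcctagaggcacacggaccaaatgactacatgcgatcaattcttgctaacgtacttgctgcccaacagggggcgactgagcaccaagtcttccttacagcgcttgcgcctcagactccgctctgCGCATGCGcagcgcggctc
Ndufaf8: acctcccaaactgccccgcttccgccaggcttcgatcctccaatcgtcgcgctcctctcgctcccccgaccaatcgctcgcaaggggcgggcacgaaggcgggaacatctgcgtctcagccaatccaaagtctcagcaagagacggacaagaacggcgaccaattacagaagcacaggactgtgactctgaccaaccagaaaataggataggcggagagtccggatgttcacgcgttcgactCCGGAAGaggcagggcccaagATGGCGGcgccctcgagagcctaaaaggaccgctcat
Ndufa1: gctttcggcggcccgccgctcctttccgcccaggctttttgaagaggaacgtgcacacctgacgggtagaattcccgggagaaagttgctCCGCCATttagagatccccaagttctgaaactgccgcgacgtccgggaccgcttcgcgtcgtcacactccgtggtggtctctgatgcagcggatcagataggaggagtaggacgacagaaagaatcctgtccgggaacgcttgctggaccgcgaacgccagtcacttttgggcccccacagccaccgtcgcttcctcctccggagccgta
Atp5md: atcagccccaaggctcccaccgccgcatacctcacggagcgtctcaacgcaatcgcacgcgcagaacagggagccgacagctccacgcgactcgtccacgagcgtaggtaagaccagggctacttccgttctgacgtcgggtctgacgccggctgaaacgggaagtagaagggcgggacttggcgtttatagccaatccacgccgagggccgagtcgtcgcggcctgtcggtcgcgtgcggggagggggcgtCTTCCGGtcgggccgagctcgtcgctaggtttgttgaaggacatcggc

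In these windows the NRF-1 letters of Uqcrc1 begin 32 bases after the start on the minus strand and at base 33 on the plus strand, since the match overlaps its own reverse complement. Ndufaf8 holds GABP letters from base -8 and YY1 letters from base 14, Ndufa1 holds YY1 letters in reverse from base -160, and Atp5md holds GABP letters in reverse from base 3. The NRF-1 letters were in 12 of 79 member windows (15.2%) and in 3.58% of all 32851 windows. GABP letters were in 19 member windows (24.1%) against 8.86%, and YY1 letters in 12 (15.2%) against 4.05%. The GC box of Sp1, GGGCGGG, was in 29 member windows (36.7%) against 25.6%. The median difference was 0.17 over the 12 members with NRF-1 letters and 0.051 over the other matched members, while for YY1 letters it was lower, 0.037 against 0.065. For GABP letters it was 0.087 against 0.048, for the GC box 0.17 against 0.040, and for any of the first 3 motifs it was 0.078 over 34 members with a match and 0.037 over the rest. A match describes letters only.

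Complex I oxidizes NADH. Its 42 members had a median difference of 0.061, with 28 higher and 14 lower. That median ran from 0.014 with the mean of all probe sets to 0.12 without M1. Groups did not overlap, on the higher side, for 9 members (21.4%), where 6.68% of all genes did so. Among genes with a mean log2 value of at least 10 the share was 3.39%. Of the 6 measured core subunits, most of which carry the flavin or iron-sulfur clusters, 4 lay higher (median 0.098). Ndufv2, a subunit of the module that takes up NADH, read 11.43, 11.31 and 11.15 in C1, C2 and C3 and 11.52, 11.68 and 11.48 in M1, M2 and M3. Its groups did not overlap, with a difference of 0.26 (SE 0.14, limma adjusted p = 0.367). Its other 2 probe sets stood at 0.52 and 0.42. Ndufs1, the largest iron-sulfur subunit, stood at -0.019, Ndufs3 at -0.057, Ndufs8 at 0.043, Ndufv1, which binds the flavin, at 0.15 and Ndufs7 at 0.19. The other Ndufs8 probe sets fell on both sides, at 0.025, -0.18, -0.15, -0.36 and 0.028. Those of Ndufv1 stood at 0.14 and -0.035, and that of Ndufs7 at 0.019.

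The 28 accessory subunits of complex I, which surround and stabilize the core, lay higher for 21 (median 0.070). Of the 28, 7 (25%) were higher without overlap, where 6.68% of all genes were. The largest difference of these was that of Ndufa5, a subunit of the arm that reaches into the matrix. Ndufa5 read 12.27, 11.54 and 11.44 in Fz8-null arrays and 12.45, 12.56 and 12.29 in double-null arrays. C1 stood just under M3, while C2 and C3 were far lower. The difference was 0.68 (SE 0.24, limma adjusted p = 0.314), from 11.75 ± 0.46 to 12.43 ± 0.14 (SD, n = 3), and the other Ndufa5 probe set stood at 0.49. Ndufa1, a short membrane subunit needed for assembly and encoded on the X chromosome, read 10.87, 10.56 and 10.62 in Fz8-null arrays and 11.04, 11.27 and 11.05 in double-null arrays. The Ndufa1 difference was 0.44 (SE 0.15, limma adjusted p = 0.314), with no overlap; its promoter is printed above.

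Ndufc2, a membrane-arm subunit whose gene lies 7.99 Mb from Fzd4 on chromosome 7, read 12.28, 11.88 and 11.95 in Fz8-null and 12.58, 12.61 and 12.32 in double-null arrays. C1 and M3 nearly met, and the difference was 0.47 (SE 0.16, limma adjusted p = 0.314). It was the only one of the 9 members on chromosome 7 within 10 Mb of Fzd4, and its other probe sets stood at 0.32, 0.16 and 0.016. The membrane-arm subunits Ndufb8 (0.37), Ndufc1 (0.35) and Ndufb2 (0.35) were also higher without overlap. So was the mitochondrial acyl carrier protein Ndufab1 (0.15), each gene on its representative probe set. Second bright probe sets stood at 0.40 for Ndufc1, 0.20 for Ndufb2 and 0.087 for Ndufab1, each with overlap. Another Ndufb2 probe set stood at 0.091. Dim ones stood at -0.38 for Ndufb8 and at -0.49, 0.085 and -0.67 for Ndufab1. Ndufb11, the member of complex I with the brightest probe set, stood at 0.072, from 12.79 ± 0.07 to 12.86 ± 0.03 (SD, n = 3). The lowest accessory subunits were Ndufa9 at -0.14 and Ndufb10 at -0.14. Ndufb9 had probe sets on both sides of 0: the representative stood at 0.035, a second bright one at -0.14 and a dim one, with a mean of 4.52, at -1.12. For Ndufb4 the representative had a mean of 3.93, near the background of the arrays, and the other probe sets that name it also name Ndufb4b and Ndufb4c.

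The 8 assembly factors of complex I carry Ndufaf names but are not part of the finished complex. Of these, 5 lay lower and 3 higher, with a median of -0.11, and no test set them against the subunits. Ndufaf8, which stabilizes the factor Ndufaf5, went the other way. It read 10.42, 9.87 and 9.66 in Fz8-null arrays and 10.58, 10.57 and 10.57 in double-null arrays, so the double-null arrays were nearly equal and the Fz8-null arrays spread. The difference was 0.59 (SE 0.21, limma adjusted p = 0.314), and a dimmer Ndufaf8 probe set stood at 0.21. Ndufaf3 stood at -0.37, Ndufaf1 at -0.33, Ndufaf6 at -0.25, Ndufaf7 at -0.13 and Ndufaf2 at -0.082, all with overlap, while Ndufaf4 stood at 0.11 and Ndufaf5 at 0.16. C1 was the lowest Fz8-null array for 7 of the 8.

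**Figure D4:**
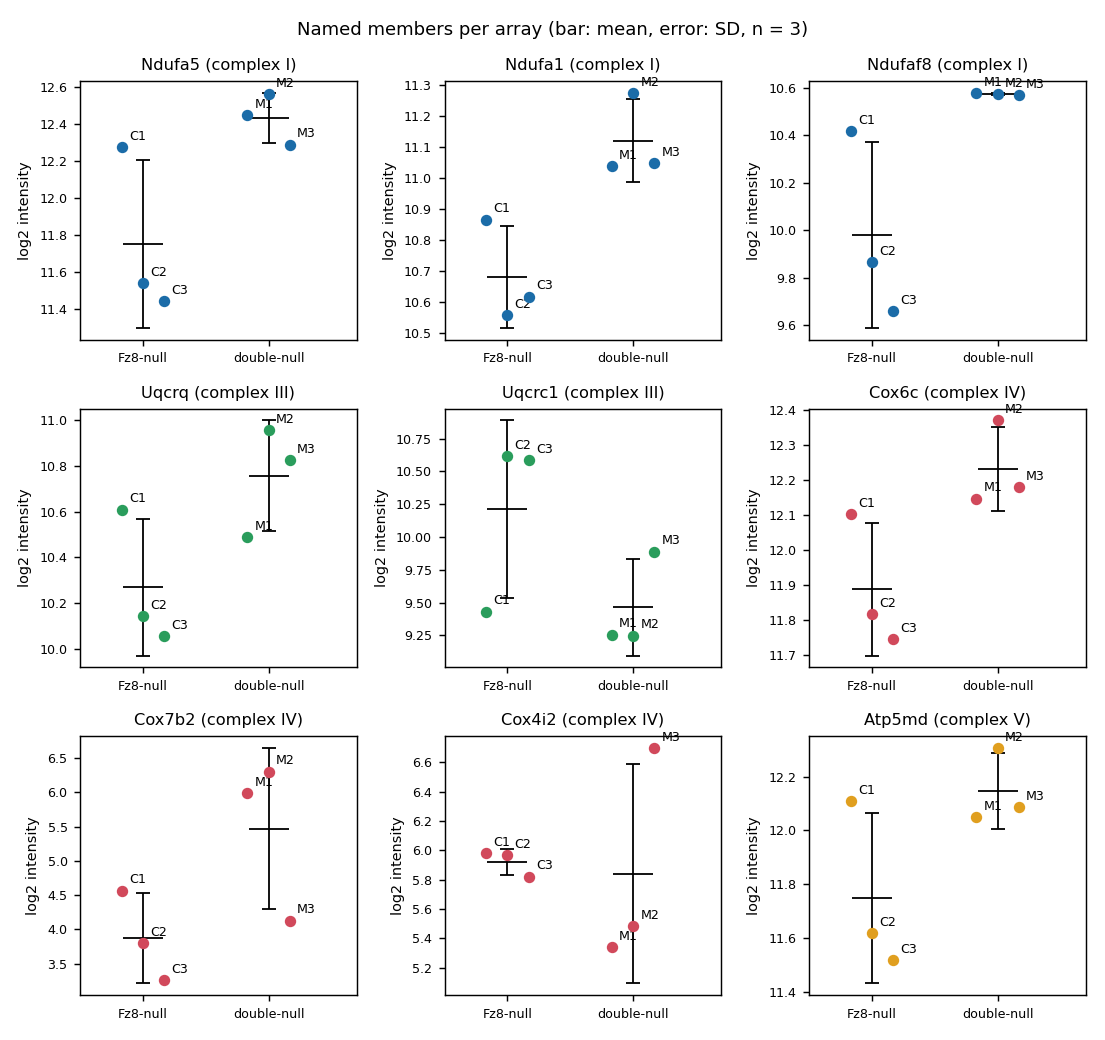
Log2 intensity of 9 members on each array, with the mean and SD of each genotype (n = 3); the vertical axis differs between panels. C1 lies close to the double-null arrays for Ndufa5, Uqcrc1, Cox6c and Atp5md, and M3 stands apart from M1 and M2 for Cox7b2 and Cox4i2.

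Complex II, succinate dehydrogenase, joins the chain to the tricarboxylic acid cycle and is encoded wholly in the nucleus. Its 4 genes split evenly, with a median difference of 0.0013 and overlap in each. Sdhb, the iron-sulfur subunit, read 11.06, 10.81 and 10.59 in Fz8-null arrays and 10.98, 11.10 and 11.19 in double-null arrays, a difference of 0.27 (SE 0.16, limma adjusted p = 0.410). Sdha, the flavoprotein, read 11.46, 11.51 and 11.42 against 11.28, 11.11 and 11.56, with M3 above and M1 and M2 below the Fz8-null arrays, and stood at -0.15 (SE 0.15, limma adjusted p = 0.618). The membrane anchors Sdhc and Sdhd stood at -0.061 (SE 0.17) and 0.064 (SE 0.13). Second probe sets stood at 0.0074 for Sdha, -0.21 for Sdhc and -0.085 for Sdhd. The signs of Sdha and Sdhd thus depended on the probe set taken. Dim Sdha probe sets stood at -0.20 and -0.41.

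Complex III passes electrons to cytochrome c. It had the highest median of the 5 complexes, 0.21 over 8 members, or 0.098 with the mean of all probe sets; no test compared its classes. All 5 small subunits lay higher, with a median of 0.22. Uqcrq read 10.61, 10.14 and 10.06 in Fz8-null and 10.49, 10.96 and 10.83 in double-null arrays, so C1 overlapped M1, and the difference was 0.49 (SE 0.20, limma adjusted p = 0.326). Without probe sets that can bind several transcripts Uqcrq is read by a dim one, and its difference turned to -0.22. Uqcr11 stood at 0.28, Uqcr10 at 0.22 (with no overlap), Uqcrb, the brightest of this complex, at 0.19 and the hinge protein Uqcrh at 0.065. Other, dimmer Uqcr10 probe sets stood at 0.032 and 0.035, both with overlap.

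Among the larger subunits of complex III, the core proteins Uqcrc1 and Uqcrc2 stood on opposite sides. Uqcrc1 was the lowest member, with 9.43, 10.62 and 10.59 in C1, C2 and C3 and 9.25, 9.25 and 9.89 in M1, M2 and M3. C1 read below M3 and far below the other Fz8-null arrays. The difference was -0.75 (SE 0.36, limma adjusted p = 0.345), and Uqcrc1 had a single probe set. Uqcrc2 read 12.51, 12.06 and 12.01 against 12.64, 12.55 and 12.45, a difference of 0.35 (SE 0.17, limma adjusted p = 0.346), again with C1 among the double-null values. The Rieske iron-sulfur protein Uqcrfs1 stood at -0.0054 (SE 0.12).

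Complex IV, cytochrome c oxidase, takes its catalytic subunits from mitochondrial DNA, and the members here are the nuclear subunits around them. Ndufa4 is counted with complex IV, where its product is found, and Ndufa4l2 is its paralog. Of the 10 widely expressed subunits 8 lay higher (median 0.073). Cox6c read 12.10, 11.82 and 11.74 in Fz8-null and 12.15, 12.37 and 12.18 in double-null arrays, with no overlap and a difference of 0.35 (SE 0.15, limma adjusted p = 0.328). Cox6a1 was higher without overlap as well, at 0.22 (SE 0.13, limma adjusted p = 0.409). Second probe sets stood at 0.40 for Cox6c and 0.11 for Cox6a1, both with overlap. The 3 members of complex IV with the brightest probe sets stood near 0 on those probe sets. Cox7a2 stood at 0.026, Cox5b at -0.013 and Cox6b1 at 0.038, the last from 13.04 ± 0.013 to 13.08 ± 0.026 (SD, n = 3). Their other bright probe sets lay higher, at 0.19 for Cox7a2, 0.12 for Cox6b1 and 0.12, 0.091 and 0.15 for Cox5b. Dim Cox5b probe sets stood at -0.40 and -0.21. Cox4i1 stood at 0.060, Cox8a at 0.087, Ndufa4 at 0.10 and Cox5a at -0.15, while the other Cox5a probe sets stood at 0.15 and 0.033. Cox7a2l, a factor that links complexes III and IV, stood at 0.21.

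Of the complex IV members, 8 are isoforms described as restricted to certain tissues, and probe brightness does not rank them against their partners. The isoforms of heart and skeletal muscle, Cox6a2, Cox7a1 and Cox8b, stood at -0.0026, -0.095 and -0.026. Their values ran from 6.41 to 6.65 for Cox6a2, 4.10 to 4.67 for Cox7a1 and 3.72 to 4.35 for Cox8b over the 6 arrays. Muscle markers themselves varied, with a mean log2 level over 21 of 21 listed genes of 5.95 to 7.07 in Fz8-null and 5.47 to 6.42 in double-null arrays. C2, with the highest muscle level, also gave the highest reading of Cox6a2 and Cox7a1, while M3 gave that of Cox8b. The margins were small: Cox6a2 read 6.65 in C2 and 6.63 in M2, and Cox7a1 read 4.67 in C2 and 4.64 in M1. M1 had the lowest muscle level, 5.47. The part of muscle RNA in these readings was not tested.

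Cox7b2, an isoform described in testis, read 4.57, 3.79 and 3.26 in Fz8-null arrays and 5.98, 6.30 and 4.13 in double-null arrays. M1 and M2 were high and M3 lay within the Fz8-null range, at levels near background. The difference was 1.60 (SE 0.60, limma adjusted p = 0.317). Without M3 it was 2.27 and passed (limma adjusted p = 0.0125), in a fit where 18.1% of all genes passed. The testis form of cytochrome c, Cyct, read 5.30, 5.24 and 5.13 against 6.43, 6.83 and 5.23, with the same arrays high, while the somatic form, Cycs, stood at 0.15 (SE 0.15). Cox6b2, also described in testis, was far brighter. It read 10.08, 9.66 and 9.53 in Fz8-null and 9.89, 10.14 and 10.53 in double-null arrays. The Cox6b2 difference was 0.43 (SE 0.22, limma adjusted p = 0.366), and Cox8c, a dim probe set, stood at 0.030.

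The isoforms Cox4i2 and Ndufa4l2, both known to respond to low oxygen, shared another shape. Cox4i2 read 5.98, 5.97 and 5.82 in Fz8-null and 5.34, 5.48 and 6.70 in double-null arrays. Ndufa4l2 read 5.95, 5.64 and 5.67 against 5.42, 5.11 and 6.48. For each, M1 and M2 lay below every Fz8-null array and M3 above, so the mean differences of -0.082 (SE 0.35) and -0.085 (SE 0.34) hide the spread. Without M3, Cox4i2 stood at -0.51 and passed (limma adjusted p = 0.0437), and without M1 its sign turned, to 0.17.

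In complex V, the ATP synthase, 9 of 17 members lay higher and 8 lower (median 0.064), and no test compared the parts of the enzyme. With arrays weighted the median turned to -0.0065, and with the mean of all probe sets it was 0.014. The 5 small membrane subunits, which hold the dimer together at the ridges of the cristae, all lay higher, with a median of 0.28. Atp5md read 12.11, 11.62 and 11.52 in Fz8-null and 12.05, 12.31 and 12.08 in double-null arrays, a difference of 0.40 (SE 0.19, limma adjusted p = 0.344), with C1 between M3 and M2. Atp5j2 (subunit f) read 12.94, 12.43 and 12.50 against 12.88, 13.05 and 13.04, a difference of 0.36 (SE 0.17, limma adjusted p = 0.342), and its other probe sets stood at 0.46 and 0.36. Atp5mpl stood at 0.28 with no overlap, Atp5l (subunit g) at 0.25 and Atp5k (subunit e) at 0.12.

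The 5 subunits of the catalytic F1 head had a median of -0.030 and the 4 of the stalk -0.082. Atp5a1 and Atp5b, the alpha and beta subunits that make ATP, stood at 0.068 (SE 0.14) and -0.030 (SE 0.15). Atp5c1, the rotating gamma subunit, stood at -0.048 and Atp5d at -0.12. Other bright probe sets stood at 0.13 and -0.037 for Atp5a1 and -0.27 for Atp5d, and a dimmer Atp5c1 one at -0.16. Atp5e, the short epsilon subunit of F1, stood apart: it read 12.50, 12.07 and 11.97 in Fz8-null and 12.46, 12.65 and 12.60 in double-null arrays, a difference of 0.39 (SE 0.17, limma adjusted p = 0.331). Of the 4 stalk subunits 3 lay lower, with Atp5j at -0.17, Atp5pb at -0.13 and Atp5o at -0.032, and Atp5h stood at 0.064. Second bright probe sets had the opposite sign, at 0.16 for Atp5pb, 0.22 for Atp5o and -0.053 for Atp5h. The signs of these genes thus depended on the probe set taken. The 3 genes of the rotor ring subunit c stood at -0.035 (Atp5g1), 0.18 (Atp5g2) and -0.0026 (Atp5g3), and Atp5g3, the brightest probe set of the complex, read between 13.05 and 13.21 on all 6 arrays.

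Further probe sets of the members were counted by sign, pooled over genes and not matched to the representative of each gene. Besides the representatives, the members had 89 probe sets. Of the 60 with a mean of at least 8, 46 lay higher (median 0.11). Of the 29 below 8, 20 lay lower (median -0.20). The level of 8 was chosen after the values were seen, and shares over all probe sets of like level were not computed. Some members, among them Atp5o, Atp5pb and Ndufs8, had bright probe sets of opposite sign. Of the 90 representatives 19 carry the _s_at or _x_at suffix, which marks probes shared with other transcripts, and several members have processed pseudogenes, so their signal may include copies.

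Further mitochondrial genes had list medians from -0.20 to 0.0069, apart from the single gene ND5, a mitochondrially encoded subunit of the chain outside the naming rule. Of the 196 genes in the 8 further mitochondrial lists, 0 passed limma's test over all genes. At an unadjusted limma p under 0.05, 8 were higher and 12 lower, where 6.05% of all genes were higher and 9.23% lower. Electron carriers and ubiquinone synthesis had 8 of 17 genes higher (median -0.053), with Coq4 at -0.47 and Cyct at 0.94. Further complex I assembly factors had 1 of 8 higher (median -0.20). Tmem126b, such a factor whose gene lies 1.06 Mb from Fzd4, read 7.56, 7.97 and 7.92 in Fz8-null and 6.48, 6.92 and 7.07 in double-null arrays, a difference of -0.99 (SE 0.20, limma adjusted p = 0.313) with no overlap, and Ecsit stood at -0.37. Assembly factors of complexes II to V had 17 of 33 higher (median 0.0069), with Coa6 at 0.62 and Pet100 at 0.67, 2 small proteins of complex IV assembly.

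The tricarboxylic acid cycle and pyruvate dehydrogenase list had 8 of 17 genes higher (median -0.0025). Cs, citrate synthase, read 12.55, 12.56 and 12.51 in Fz8-null and 12.30, 12.22 and 12.41 in double-null arrays, -0.23 with no overlap (SE 0.12, limma adjusted p = 0.368), and Idh3g stood at 0.33. Carriers, pores and import genes had 2 of 23 higher (median -0.097), with Mfn2, an outer-membrane fusion protein, at -0.92 and Phb2 at -0.44. Mitochondrial ribosomal protein genes had 29 of 76 higher (median -0.066), with Mrps24 at 0.70 and Mrps18c at 0.40. The mitochondrially encoded subunits were represented by ND5 alone, at 0.13 (SE 0.14, limma adjusted p = 0.631).

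Regulators of mitochondrial gene expression had 11 of 21 genes higher (median 0.0036). Ppargc1a, a coactivator of mitochondrial biogenesis, read 7.69, 7.47 and 7.19 in Fz8-null and 8.53, 8.58 and 8.04 in double-null arrays. The groups did not overlap, and the difference was 0.94 (SE 0.20, limma adjusted p = 0.314; exact permutation p = 0.1, the smallest possible with 3 arrays against 3). The genes of the promoter-binding factors gave 0.0036 for Gabpa and -0.11 for Nrf1. Twnk, the mitochondrial DNA helicase, stood at -0.38, and Tfam, which packages that DNA, at -0.23, both lower without overlap.

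**Figure D5:**
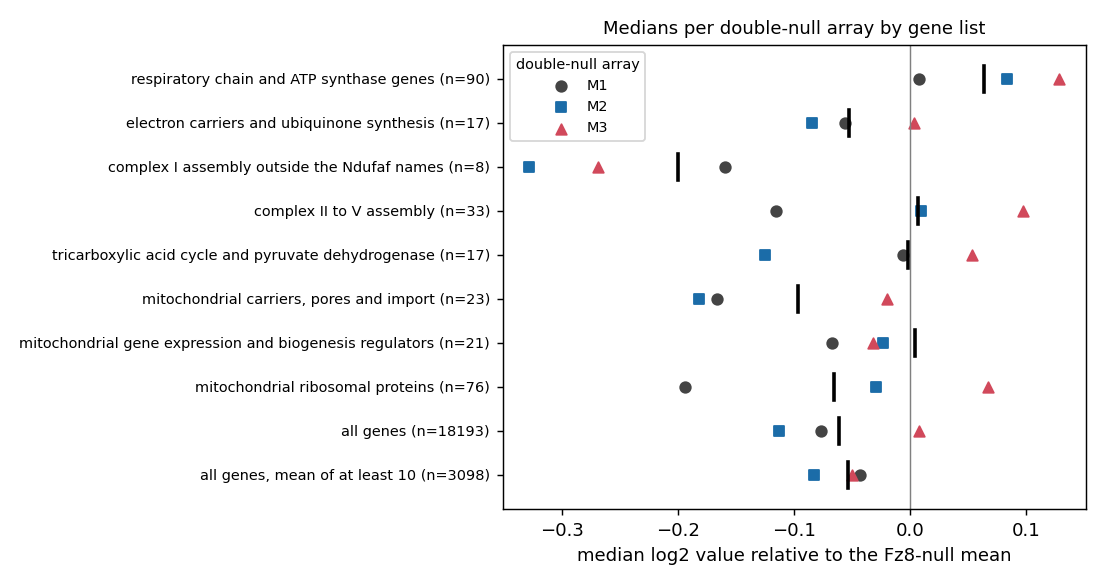
Median log2 value relative to the Fz8-null mean in each double-null array (symbols) and median difference between genotypes (bars), for the members, 7 further mitochondrial lists and all genes. The members lie at 0.0072, 0.083 and 0.13 in M1, M2 and M3, to the right of all genes at -0.077, -0.11 and 0.0077.

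Across the series, the Fzd8 probe set read between 3.57 and 4.42 on all 6 arrays, Fzd4 itself fell by 6.13 on the log2 scale (limma adjusted p = 0.00318), and 15 of 16 listed kidney genes were measured, with a mean level of 9.45 to 9.54 in Fz8-null and 8.92 to 9.22 in double-null arrays. Markers of other tissues varied between arrays, and no marker gene passed limma. Liver genes (9 of 11 measured, all 9 higher) had a mean level of 5.34 to 6.08 in Fz8-null and 6.50, 9.06 and 9.35 in M1, M2 and M3. Erythroid genes (11 of 13 measured, 10 higher) ran from 7.07 to 7.31 in Fz8-null arrays and were 6.57, 9.36 and 9.51 in M1, M2 and M3, so M1 lay below every Fz8-null array. Tubule and podocyte genes (12 of 15 measured) ran from 5.57 to 5.62 and from 5.40 to 6.10. The part of these markers in the members' differences was not tested.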

How the data were processed

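Kidneys of E13.5 embryos were profiled from 100 ng of total RNA on 6 arrays, 3 per genotype, taken as separate samples as the labels state; p-values measure the spread between them. The deposited values are log2 probe-set intensities that the authors normalized with RMA, per the submitters' processing notes, with medians from 6.02 to 6.14; they were used as given. Of 45101 probe sets, 34945 outside the controls had 1 annotated gene, and 10 that name a member with other genes were left out. Arrays carry no depth, so their number limits precision.

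limma 3.58.1 (R 4.3.3, lmFit and eBayes, two-sided, Benjamini-Hochberg over 18193 genes, threshold 0.05) compared the groups. It was tested on simulated data with changes larger than that of any member, which cannot show whether changes as small as the members' would pass. A permutation over 3 against 3 arrays cannot go under 0.1. Members and lists were chosen with earlier results of these data known. The text names, in each complex, the 3 members of smallest p, the brightest, isoforms and their partners, all Sdh genes, members whose probe sets differ in sign by 1 or more, and 2 genes of smallest p per further list; other members named were chosen after their values were seen. Alternatives were quantile normalization, equal medians, a minimum mean of 6, the mean of all probe sets, trend and robust settings, array weights, a replicate block, each array left out, an adjusted p of 0.1 and, added later, no _s_at or _x_at probe sets. Motif letters were searched on both strands of the RefSeq windows, and the check of replicate numbers is given with the alternatives.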

Additional observations from a re-analysis of the deposited data

How the results depend on the processing

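No member passed under quantile normalization, equal array medians, a minimum mean log2 of 6, the mean of all probe sets, trend and robust settings, an adjusted p of 0.1 or without _s_at and _x_at probe sets, the last added after the data were seen. With array weights 26 passed limma, where 41.6% of all genes did. With an array left out 0 to 2 passed, the 2 without M3, where 18.1% of all genes did. Members higher without overlap numbered 11 to 19 under the other settings, where 3.08% to 8.67% of the genes tested were. With an array left out they numbered 13 to 33, where 8.32% to 19.2% of genes were. Members lower without overlap numbered 1 with the mean of all probe sets, where 12.5% of genes were. With an array left out they numbered 0 to 12, where 13.9% to 34.1% of genes were. The median difference of complex II was 0.074 with quantile normalization, 0.057 with equal medians, -0.073 with the mean of all probe sets, -0.073 without _s_at and _x_at probe sets, and -0.036 to 0.042 with an array left out. That of complex IV was 0.093 with equal medians, 0.087 with a minimum mean of 6 and 0.032 to 0.097 with an array left out. The medians of complexes I and III stayed above 0 under every setting run, from 0.014 to 0.12 and from 0.098 to 0.26; that of complex V ran from -0.0065 with array weights to 0.12 with equal medians. In the fit with array weights, where 41.6% of all genes passed, the further lists passed in part. There, 9 of 17 electron carrier, 3 of 8 further complex I assembly and 17 of 33 complex II to V assembly genes passed. So did 7 of 17 tricarboxylic acid cycle, 8 of 23 carrier and import, 7 of 21 regulator and 33 of 76 ribosomal protein genes. With an array left out, 0 to 3, 0 to 1 and 0 to 4 genes of the first 3 lists passed. For the next 3 the counts were 0 to 1, 0 to 3 and 0 to 2. The highest counts came without M3, where 18.1% of all genes passed. The weights ran from 0.211 (M3) to 3.93 (M1), and the cause was not tested. Of the 34 members named by rule, 17 kept their sign under every setting run and 17 did not. With the replicate block 0 members passed (smallest limma adjusted p 0.289), and 3 genes in all; the numbers did not pair the arrays, whose deviations from their group means gave r = 0.17 for C1 with M1, -0.14 for C2 with M2 and 0.090 for C3 with M3. Signal near background limits Cox7b2 and the other dim isoforms.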
